A study of Drosophila melanogaster with 96 samples.

Results

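10 genes of the light-signalling cascade of the fly eye, ninaE, Rh3, Rh4, Rh6, norpA, trp, trpl, inaD, Arr1 and Arr2, were described in single whole flies by sex, hours of refeeding and dietary solvent. They were found as the rows whose FlyBase identifiers carry those symbols, 10 of the 17370 genes counted. All 10 were found, all 10 passed the filter on low counts in every fit, and the lowest count of any of them in any library was 42, of norpA. In the Ensembl annotation of the BDGP6 assembly, ninaE, Rh3, Rh6 and trp lie on arm 3R, Rh4 and Arr2 on 3L, trpl and inaD on 2R, Arr1 on 2L and norpA on X.

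The flies were Drosophila melanogaster of the laboratory strain w1118, which carries a null white allele and has unpigmented eyes. All groups shared that strain, virgin status, an age of 3 days, a holidic (chemically defined) liquid diet and a period of starvation on buffered saline. The 48 females and 48 males were then refed in single wells for 0, 2, 4 or 8 h, 3 flies a group, on the diet alone or with dimethyl sulfoxide (DMSO, a drug solvent) at 0.1%, 0.2% or 0.4% by volume. Flies at 0 h had eaten no DMSO food, so their DMSO level is a group label only. A whole body is the limit of the sample: eye RNA was diluted by that of every other tissue, and in such bulk RNA fewer photoreceptor cells and less RNA per photoreceptor cannot be told apart. Each time had 1 feeding plate, so hours of refeeding, plate and clock time of collection cannot be told apart. Each fly's RNA was also mixed with RNA of other insects before library preparation, and the share of the 10 genes' counts that came from reads of those insects was not measured.

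Libraries held 958896 to 9215800 gene counts (median 4777950), and values are given as CPM, counts scaled by TMM-adjusted library size. Replicates were separate flies, so p-values measure the spread between flies. Of these libraries 3 were set apart: female, 8 h, 0.4% DMSO, replicate 3, with 134 unnormalised CPM of the male dosage-compensation RNA roX1 against at most 3.21 in the other 47 females; male, 4 h, 0.4%, replicate 1, the shallowest, with 42.7% of counts from ribosomal RNA genes; and male, 0 h, 0.4%, replicate 2, whose title gives 0 h and whose characteristics give 8 h. Leaving out any one of these 3 libraries moved the count of changed genes among the 10 in 2 comparisons (females, 8 h against 4 h, and males, 8 h against 0 h), given with those comparisons. All female libraries shared 1 sequencing run. For males that run held just the DMSO-free flies of 0 h, of 2 h and, save 1, of 4 h, and a second run held the rest, so male times were compared over the 3 foods with DMSO and the sexes only within the shared run.

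In fly photoreceptors, a rhodopsin that absorbs light activates a G protein, which turns on a phospholipase C, and the breakdown of membrane phosphoinositides then opens cation channels of the TRP family. A scaffold protein holds several of these proteins together in the rhabdomere, the stacked microvilli where light is caught, and arrestins bind light-activated rhodopsin to end the response. ninaE encodes the rhodopsin of the outer photoreceptors, Rh3 and Rh4 encode ultraviolet-sensitive rhodopsins of the inner photoreceptors, and Rh6 encodes a green-sensitive one of a subset of inner photoreceptors. norpA encodes the phospholipase C, trp and trpl the light-activated channels, inaD the scaffold, and Arr1 and Arr2 the arrestins.

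The labelled tissue and the members' order of abundance were examined first. To compare genes, CPM was divided by coding length in kilobases, without a test. ninaE led in all 48 females and all 48 males, with a median of 1701 CPM per kb (740 to 3100) in females and 2765 (952 to 7038) in males. The arrestin transcripts came next, Arr2 at 746 and Arr1 at 707 CPM per kb in females and Arr1 at 1166 and Arr2 at 1163 in males. Their order was not fixed, since Arr2 exceeded Arr1 in 34 of 48 females and Arr1 exceeded Arr2 in 33 of 48 males. Every fly had more of either arrestin transcript than of Rh3, the next in order.

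Below the arrestins the levels lay close together. In females the medians ran from Rh3 (86.5 CPM per kb) through trp (70.5), Rh4 (55.5), trpl (45.5), Rh6 (39.4) and norpA (33.9) to inaD (29.6), and each of these exceeded its next neighbour in 31 to 44 of 48 flies. In males they ran from Rh3 (131) through trp (127), Rh4 (114), Rh6 (82.2), trpl (60.1) and inaD (50.0) to norpA (38.8), with the neighbour exceeded in 29 to 47 of 48 flies. In neither sex did a neighbouring pair below the arrestins separate in every fly.

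Relative to ninaE per coding length, Rh3 held a median of 5.38% in females and 4.63% in males, Rh4 3.30% and 4.09%, and Rh6 2.35% and 2.88%. Other opsins of the fly gave the surroundings of these values. Rh5, the blue-sensitive rhodopsin of inner photoreceptors, held 1.93% and 1.82%, the ocellar opsin Rh2 0.647% and 0.748%, and Rh7, an opsin found in the brain, 0.0767% and 0.0941%, with 0 counts in 1 female library. By these medians the opsins of the compound eye exceeded those of the ocelli and brain in both sexes.

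**Figure D1:**
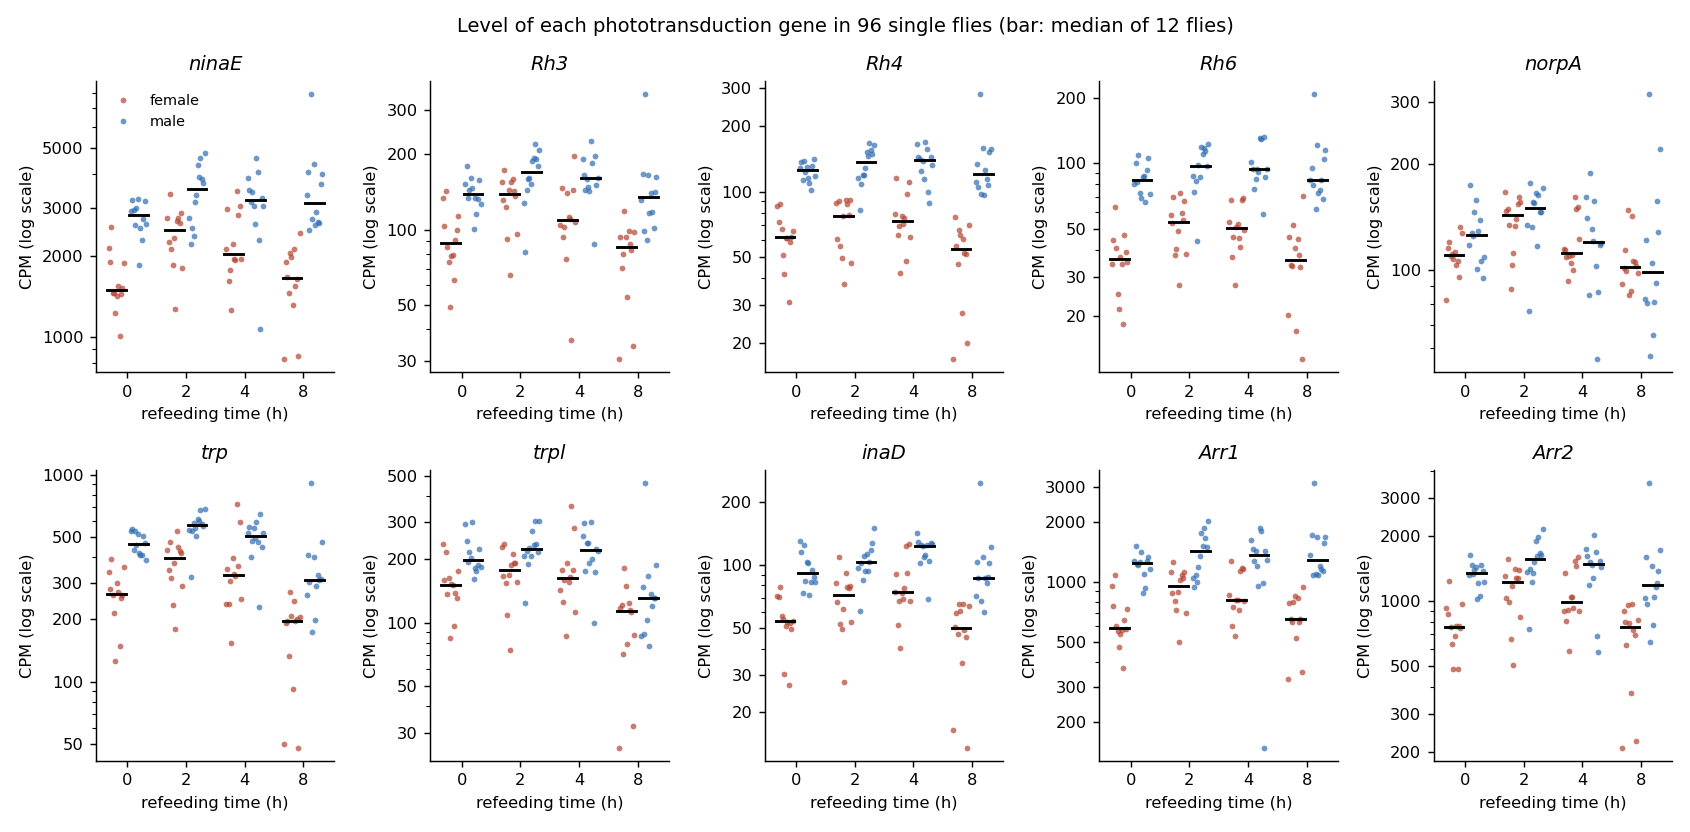
TMM-normalised CPM on a log axis (vertical) of each of the 10 genes against hours of refeeding (horizontal), 1 point a fly, with the medians of females and males marked. The median of ninaE in females was 1486 CPM at 0 h, 2488 at 2 h, 2027 at 4 h and 1655 at 8 h, and the ranges of all times overlapped for every gene.

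Females over time came first, with 12 flies at each time over the 4 foods. All 10 transcripts were lower after 8 h of refeeding than after 2 h, and 4 of them (ninaE, Rh3, norpA and Arr1) were higher after 2 h than before refeeding. No member differed between 8 h and 0 h by the test. Falls from 2 h to 8 h ran from log2 -0.49 for norpA to -1.29 for trp (edgeR, quasi-likelihood test, Benjamini-Hochberg over all 10060 genes tested). In the same comparison 18.9% of all genes fell and 8.71% rose, 27.6% in either direction.

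Among the opsins, ninaE measured 1011 to 2547 CPM (median 1486) in females at 0 h, 1264 to 3384 (2488) at 2 h, 1259 to 3478 (2027) at 4 h and 830 to 2430 (1655) at 8 h. The highest flies stood at 2 and 4 h, and 11 of 12 flies at 2 h exceeded the 0 h median. ninaE rose by 0.65 log2 units (SE 0.19, adjusted p = 0.0202, edgeR's quasi-likelihood test) from 0 to 2 h and fell by 0.68 (SE 0.19, adjusted p = 0.0122) from 2 to 8 h. All 12 flies at 8 h lay below the 2 h median, although the ranges overlapped. Rh3, of the ultraviolet-sensitive inner photoreceptors, measured 49.2 to 143 CPM (88.2) at 0 h, 65.8 to 173 (140) at 2 h, 36.2 to 197 (109) at 4 h and 30.5 to 119 (85.4) at 8 h. It rose by 0.61 log2 units (SE 0.22, adjusted p = 0.0485, edgeR) and then fell by 0.90 (SE 0.22, adjusted p = 0.00536), the second step larger than the first in the fit.

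Rh4, the other ultraviolet-sensitive rhodopsin, measured 30.7 to 87.2 CPM (61.3) at 0 h, 37.3 to 91.5 (77.4) at 2 h and 16.8 to 76.1 (54.2) at 8 h. Its difference of log2 0.30 from 0 to 2 h did not pass the test (SE 0.23, adjusted p = 0.436, edgeR), and 5 of 12 flies at 2 h lay below the 0 h median. From 2 to 8 h it fell by 0.64 log2 units (SE 0.23, adjusted p = 0.0395, edgeR), with all 12 flies at 8 h below the 2 h median. Rh6, the green-sensitive rhodopsin, measured 18.3 to 62.9 CPM (36.2) at 0 h, 27.6 to 73.1 (54.0) at 2 h and 12.7 to 70.4 (36.1) at 8 h. It fell by 0.65 log2 units from 2 to 8 h (SE 0.23, adjusted p = 0.0341, edgeR), and its earlier difference of 0.61 had an adjusted p of 0.0657. The highest 8 h values of Rh6, ninaE and Arr1 came from the female library with male transcripts. The other 11 females at 8 h reached 52.0, 2117 and 849 CPM.

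norpA, the phospholipase C, had the smallest fall from 2 to 8 h of the 10 genes and varied least between females. It measured 82.1 to 132 CPM (110) at 0 h, 88.1 to 167 (143) at 2 h, 93.0 to 161 (112) at 4 h and 84.9 to 148 (102) at 8 h. The 2 h flies stood out, since 9 of 12 exceeded every fly at 0 h. norpA rose by 0.36 log2 units (SE 0.11, adjusted p = 0.0194, edgeR) from 0 to 2 h and fell by 0.49 (SE 0.11, adjusted p = 0.00339) from 2 to 8 h.

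The channel transcripts had the largest falls of the 10 genes in the fit. trp, the main light-activated channel, measured 126 to 390 CPM (266) in females at 0 h, 180 to 535 (396) at 2 h, 154 to 723 (329) at 4 h and 48.1 to 270 (196) at 8 h. All 12 flies at 8 h lay below the medians of 2 h and 4 h, and 4 lay below every fly at 2 h. From 2 to 8 h trp fell by 1.29 log2 units (SE 0.27, adjusted p = 0.0028, edgeR), and its difference of 0.57 from 0 to 2 h did not pass (adjusted p = 0.150). trpl, the related channel, measured 84.5 to 237 CPM (152) at 0 h, 73.9 to 237 (179) at 2 h, 87.0 to 360 (163) at 4 h and 25.5 to 182 (114) at 8 h. It differed by only log2 0.25 between 0 and 2 h (adjusted p = 0.556, edgeR) and fell by 0.93 from 2 to 8 h (SE 0.25, adjusted p = 0.01), with 11 of 12 flies at 8 h below the 2 h median.

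inaD, the scaffold that holds the channel and the phospholipase near each other, measured 26.7 to 78.4 CPM (54.1) at 0 h, 27.9 to 109 (72.0) at 2 h, 40.4 to 126 (74.2) at 4 h and 13.5 to 65.3 (50.0) at 8 h. It fell by 0.69 log2 units from 2 to 8 h (SE 0.24, adjusted p = 0.0322, edgeR), and all 12 flies at 8 h lay below the medians of 2 h and 4 h. Arr1 measured 371 to 1089 CPM (593) at 0 h, 502 to 1268 (958) at 2 h and 326 to 942 (655) at 8 h. It rose by 0.61 log2 units (SE 0.19, adjusted p = 0.0249, edgeR) and fell by 0.63 (SE 0.19, adjusted p = 0.0154), so the median at 8 h stood near that at 0 h. Arr2, the more abundant arrestin of the fly eye, measured 482 to 1241 CPM (760) at 0 h, 504 to 1570 (1224) at 2 h and 209 to 973 (760) at 8 h. From 2 to 8 h it fell by 0.88 log2 units (SE 0.24, adjusted p = 0.01, edgeR), and its earlier difference of 0.62 did not pass (adjusted p = 0.0724).

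From 0 to 2 h, then, 4 of 10 members rose in females, beside 11.2% of all genes (4.22% fell), and all 10 fitted values lay above 0 (log2 0.25 to 0.65). From 4 to 8 h, 4 of 10 fell, beside 5.06% of all genes (1.94% rose): trp by log2 -1.19, trpl by -0.96, inaD by -0.88 and Arr2 by -0.82. Between 4 and 0 h the same test called 0 of 10 with 5 at an unadjusted p under 0.05, beside 0.00994% of all genes, and DESeq2 also called 0. Between 8 and 0 h it called 0 of 10 with 2 at an unadjusted p under 0.05 (smallest adjusted p = 0.125), beside 3.87% of all genes (0.577% higher, 3.29% lower), and DESeq2 again called 0. trp and trpl had the lowest medians at 8 h against 0 h, with 11 of 12 flies at 8 h below the 0 h median of each.

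The female calls rested on pooling the foods. On food without DMSO alone (3 flies against 3) and on the 3 foods with DMSO alone (9 against 9), the call of a fall from 2 to 8 h was lost for all 10 genes, although every fitted value stayed below 0. trp, for example, gave log2 -1.71 (SE 0.55, adjusted p = 0.0886) without DMSO and -1.15 (SE 0.31, adjusted p = 0.0508) with it. The 4 genes higher at 2 h became 0 without DMSO and 2 (ninaE and Arr1) with it. That count was also 0 when female 0 h 0% replicate 1, 0 h 0.4% replicate 1, 2 h 0.2% replicate 2 or 2 h 0.4% replicate 2 was left out, and 2 without 0 h 0% replicate 2, 0 h 0.2% replicate 3 or 2 h 0.4% replicate 1. The fall from 2 to 8 h was called for 6 of 10 genes without female 2 h 0.2% replicate 2 and for 7 or more without any other single library.

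The count of 4 falls from 4 to 8 h moved more when single flies were left out. In the main fit all 10 genes had an unadjusted p under 0.05 in this step. The shares of all genes called under the alternatives below were not set beside these counts. It was 10 with DESeq2. It was 0 without any one of 9 libraries, namely female 4 h 0% replicate 2, 4 h 0.1% replicate 1, 4 h 0.1% replicate 3, 4 h 0.4% replicate 2, 8 h 0% replicate 1, 8 h 0.1% replicates 1 and 2, 8 h 0.2% replicate 1 and 8 h 0.4% replicate 2. It was 2 without 4 h 0.2% replicate 3, 7 without 4 h 0.2% replicate 2, 8 without 8 h 0.1% replicate 3, 9 without 4 h 0% replicate 1, and 10 without 4 h 0.1% replicate 2, 4 h 0.4% replicate 3 or 8 h 0.4% replicate 3, the library with male transcripts.

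In males 9 flies a time were compared, all from the groups with DMSO. The flies at 0 h had eaten no DMSO food, so in male steps from 0 h refeeding and DMSO cannot be told apart. Only trp changed, falling from 2 to 8 h, beside 0.87% of all 12644 genes that fell. trp measured 387 to 533 CPM (456) at 0 h, 505 to 681 (583) at 2 h and 174 to 913 (313) at 8 h. At 8 h 8 of 9 flies lay below every 2 h fly, and the ninth, the 0.1% replicate 1 fly, lay above all of them. trp fell by 0.66 log2 units (SE 0.19, adjusted p = 0.0327, edgeR's quasi-likelihood test over all genes), and without the ninth fly by 0.93 (SE 0.16, adjusted p = 0.000986).

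trpl in males measured 161 to 300.3 CPM (189) at 0 h, 190 to 305 (233) at 2 h and 77.5 to 462 (132) at 8 h, with the same 8 of 9 flies below every 2 h fly. Its fitted difference of log2 -0.56 from 2 to 8 h did not pass (adjusted p = 0.0997, edgeR). The count of falls among the 10 genes was 3 without male 8 h 0.1% replicate 1. It was 0 without male 2 h 0.2% replicate 3, 2 h 0.4% replicate 3, 8 h 0.1% replicate 2, 8 h 0.1% replicate 3, 8 h 0.2% replicate 1 or 8 h 0.4% replicate 2, and 2 (trp and trpl) with DESeq2. The 0.1% replicate 1 fly at 8 h held 7896 CPM of ninaE, where the other 8 h males on DMSO held 2593 to 4359, and was the highest of its group for each of the 10 genes.

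The other male steps held no called member. From 0 to 2 h all 10 fitted values lay above 0 (log2 0.20 to 0.47), 2 had an unadjusted p under 0.05 and 0 passed the adjustment, beside 1.4% of all genes, with 0 also by DESeq2. ninaE was at 1850 to 3236 CPM (2626) at 0 h and 2354 to 4773 (3823) at 2 h, and 7 of 9 flies at 2 h exceeded every 0 h fly. From 0 to 4 h and from 4 to 8 h edgeR called 0 of 10, as did DESeq2, with 0 and 1 unadjusted p under 0.05, beside 0.957% and 0.862% of all genes. From 0 to 8 h both called 0 of 10, with 1 unadjusted p under 0.05, beside 11.3% of all genes. In that comparison ninaE stood at log2 0.45 (adjusted p = 0.0774), and 1 gene was called higher without the shallowest library, without male 8 h 0.1% replicate 2 or without 8 h 0.4% replicate 1. Without male 8 h 0.1% replicate 1, 2 genes were called lower from 0 to 8 h and 1 from 4 to 8 h.

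Whether the time course differed between the sexes was tested as sex-by-time terms over the foods with DMSO, in 1 fit of 13061 genes. Terms against 0 h set flies fed DMSO against flies that had eaten none, in both sexes. The female change from 2 to 8 h minus that in males was log2 -0.40 to -0.03 over the 10 genes, and none passed the test (smallest adjusted p = 0.454, edgeR). The terms for 2, 4 and 8 h against 0 h also called 0 of 10. All 4 terms had 0 members at an unadjusted p under 0.05, with 0 by DESeq2, beside 0.00766% of all genes for 2 against 0 h, 0% for 4 against 0 h, 0.0459% for 8 against 0 h (0.0383% higher in females) and 0.00766% for 8 against 2 h. The fall of all 10 genes in females and of 1 in males was therefore not shown to differ between the sexes.

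Transcripts of other tissues moved with the female changes. Of 21 measured pan-neuronal genes, such as those of synaptic vesicles, 19 rose from 0 to 2 h (median of the list log2 0.89) and 18 fell from 2 to 8 h (median -0.81). Their summed level ran from 589 to 1416 CPM at 0 h, 630 to 1887 at 2 h, 632 to 2033 at 4 h and 479 to 1285 at 8 h, and none was at 0 in any library. Of 12 muscle genes 9 rose and then 12 fell (median -1.04 from 2 to 8 h), with sums of 2847 to 12437, 3672 to 22390, 3872 to 23234 and 3902 to 11737 CPM. Of 6 glial genes 2 rose and 3 fell, and of 6 antennal genes 1 rose and 0 fell. In the same comparisons 11.2% of all genes rose from 0 to 2 h and 18.9% fell from 2 to 8 h. The median fall of the 10 members was log2 -0.68, beside -0.81 for the pan-neuronal and -1.04 for the muscle genes, and the part of these tissues in the members' changes was not tested.

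Scaling each library to its pan-neuronal genes in place of all genes changed the picture in females. It put the median of all genes at log2 -0.70 for 2 h against 0 h and at 0.75 for 8 h against 2 h. TMM gave -0.02 and -0.002. On that scale 0 members rose from 0 to 2 h and 3 were lower, Rh4 (log2 -0.54), trpl (-0.57) and inaD (-0.40), beside 0.567% of all genes higher and 49.1% lower, so 3 of 10 was no more than the share of all genes. From 2 to 8 h only trp was still lower, by log2 -0.58 (SE 0.16, adjusted p = 0.009, edgeR), and ninaE (0.07), Rh4 (0.09), Rh6 (0.07), norpA (0.28), inaD (0.04) and Arr1 (0.12) lay above 0, where 2.19% of all genes were lower and 63.1% higher. From 0 to 8 h trp (-0.83) and trpl (-0.78) were lower, beside 4.14% of all genes. In males this scaling put the median of all genes at log2 0.26 for 8 h against 2 h and at -0.07 for 8 h against 0 h. There trp (-0.60) and trpl (-0.47) were lower at 8 h than at 2 h and at 8 h than at 0 h (-0.56 each), beside 0.15% and 0.546% of all genes. The fall of trp from 2 to 8 h was thus called in both sexes on both scales.

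**Figure D2:**
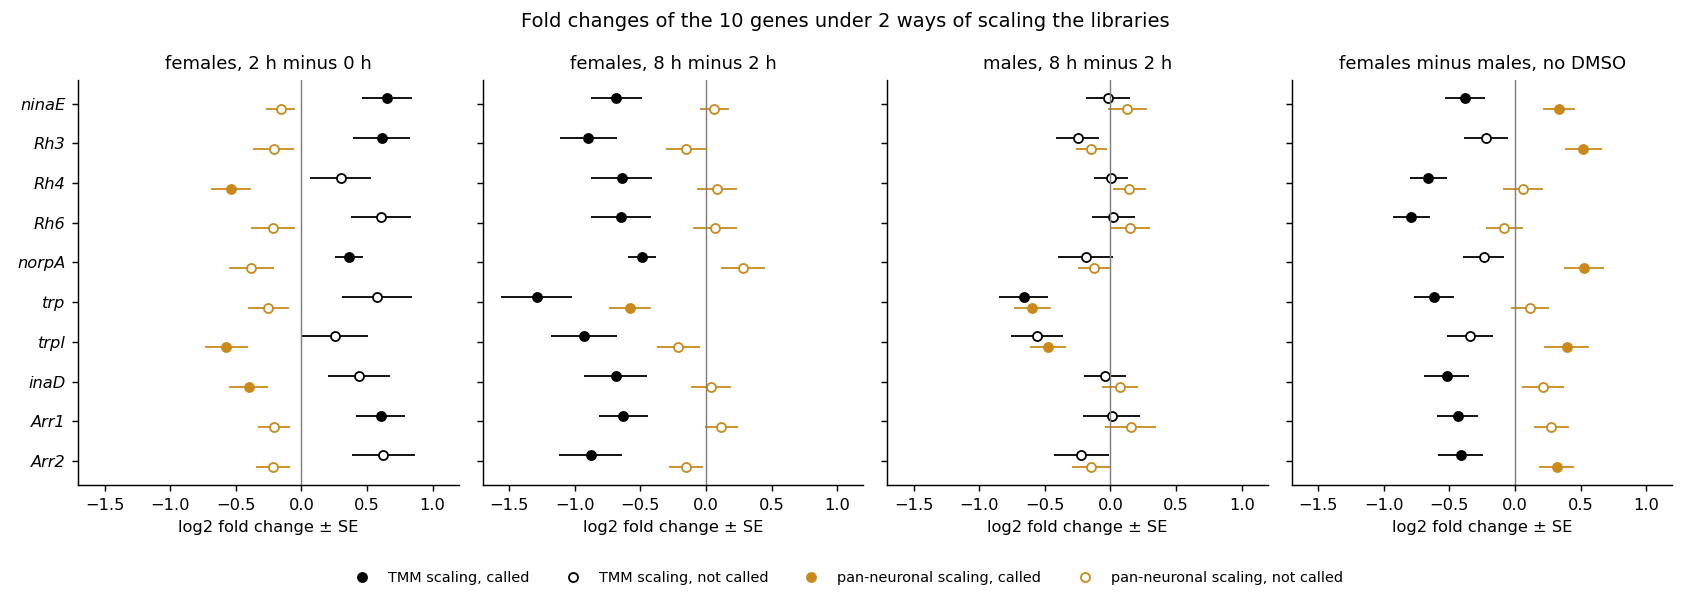
Log2 fold change (horizontal) of each gene (vertical) with its standard error, scaled by TMM over all genes or by the pan-neuronal genes, for females 2 h against 0 h, females 8 h against 2 h, males 8 h against 2 h, and females minus males without DMSO. In females from 2 to 8 h all 10 values lay below 0 with TMM, while with pan-neuronal scaling trp alone was called, at log2 -0.58.

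Ratios within a library do not depend on how libraries are scaled. Each of 9 members was set against ninaE, and 3 pairs of inner opsins (Rh3 to Rh4, Rh6 to Rh4 and Rh6 to Rh3) were formed. These ratios were chosen after the fold changes had been seen. With 7 comparisons this gave 84 two-sided permutation tests with Benjamini-Hochberg adjustment, of which 36 had an adjusted p under 0.05.

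trp fell against ninaE in both sexes. Per 100 CPM of ninaE, females held 10.3 to 21.3 CPM of trp (median 16.6) at 0 h, 12.7 to 20.0 (15.6) at 2 h, 11.3 to 20.8 (15.9) at 4 h and 5.68 to 13.2 (10.3) at 8 h. Males held 14.7 to 22.7 (16.6), 14.2 to 24.8 (15.2), 10.1 to 60.6 (13.8) and 6.39 to 12.3 (10.0), the 60.6 belonging to the shallowest library. In males every fly at 8 h thus lay below every fly at 0 and 2 h, and in females 6 of 12 flies at 8 h lay within the range of 0 h and 2 within that of 2 h. The log2 ratio differed between 8 h and 2 h by -0.70 in females (permutation p = 2e-05, the smallest that the 100000 resamples allow, adjusted p = 0.000494) and by -0.72 in males on DMSO foods (exact permutation p = 4.11e-05, the smallest that 9 flies against 9 allow, adjusted p = 0.000494). Between 2 and 0 h it differed by -0.07 in females and -0.11 in males, neither past the threshold.

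trpl also fell against ninaE in both sexes, and in males in each comparison tested, among 0, 2 and 8 h. Females held 6.90 to 11.2 CPM of trpl per 100 of ninaE (9.52) at 0 h, 5.85 to 8.66 (7.28) at 2 h and 3.07 to 8.89 (6.12) at 8 h, and males 6.59 to 10.0 (7.42), 5.64 to 8.67 (6.34) and 2.57 to 5.85 (3.81). The medians at 8 h were the lowest in both sexes, and those at 2 h lay lower than at 0 h. At 4 h, which was not tested, the medians of 7.94 in females and 6.91 in males lay above those at 2 h. In females the ranges at 2 and 8 h overlapped. In permutation tests the log2 ratio at 2 h differed from that at 0 h by -0.39 in females (adjusted p = 0.000764) and -0.23 in males (adjusted p = 0.0208). At 8 h it differed from that at 0 h by -0.72 and -0.84 (adjusted p = 0.000494 for each sex). From 2 to 8 h the difference of -0.61 in males passed (exact permutation, adjusted p = 0.000691) and that of -0.33 in females did not (adjusted p = 0.0731).

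The arrestin and opsin ratios moved less. Arr1 followed ninaE most closely, at medians of 39.0 to 43.7 CPM per 100 of ninaE over the 8 groups of sex and time, and its log2 ratio differed by at most 0.11 in size in any comparison. Of those small differences 3 passed, in females from 2 to 8 h (0.05, adjusted p = 0.0209, permutation) and in males from 0 to 2 h (-0.11) and from 0 to 8 h (-0.09). Arr2 stood at a median of 48.7 per 100 in females at 0 h and 42.5 at 8 h, and 47.5 and 38.4 in males. Its log2 ratio differed between 8 h and 0 h by -0.30 in females (permutation, adjusted p = 0.0203) and -0.39 in males (exact permutation, adjusted p = 0.0048).

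Rh3 stood at 5.50 CPM per 100 of ninaE in females at 2 h and 4.70 at 8 h, and at 4.805 and 4.02 in males. The log2 ratio differed between those times by -0.23 in females (permutation, adjusted p = 0.0121) and -0.27 in males (exact permutation, adjusted p = 0.00958). Rh4 instead had a lower ratio at 2 h, with 3.88 CPM per 100 of ninaE at 0 h and 2.95 at 2 h in females, and 4.43 and 3.80 in males. Its medians were higher again at 4 h, at 3.65 in females and 4.33 in males, and stood at 3.14 and 3.82 at 8 h. The 4 h ratios were not tested. The difference of Rh4 against ninaE from 0 to 2 h was log2 -0.36 in females (permutation, adjusted p = 0.000494) and -0.27 in males (exact permutation, adjusted p = 0.0177). The Rh3 to Rh4 ratio accordingly went up by log2 0.32 and 0.22 from 0 to 2 h and then changed by -0.22 and -0.28 from 2 to 8 h, in females and males, each with an adjusted p of at most 0.0197 by permutation. Rh6 and norpA against ninaE passed in no comparison over time, and inaD against ninaE passed in females from 0 to 2 h (log2 -0.22, adjusted p = 0.0283) and from 0 to 8 h (-0.27, adjusted p = 0.0497, permutation).

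Each of the 36 called ratios kept its direction with any 1 library left out (740 values), and the 21 of them that used a library set apart kept their direction and an unadjusted permutation p under 0.05 without those 3 libraries. Ribosomal RNA took 4.81 to 51.4% of gene counts across libraries, and the part of RNA quality in the ratios was not tested. Females at each time shared plates with the males, so the time of collection and the plate were common to both sexes.

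**Figure D3:**
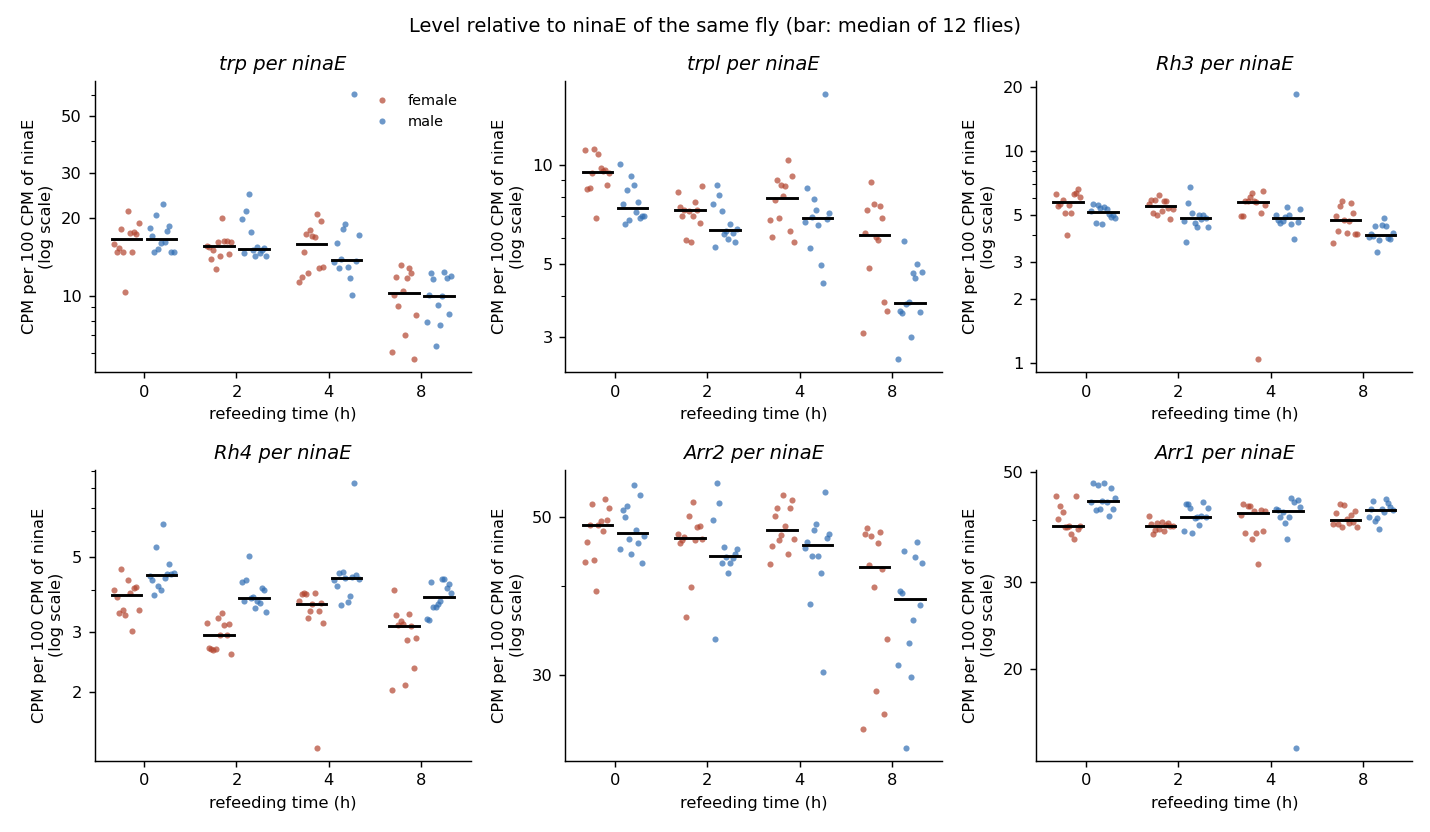
CPM of trp, trpl, Rh3, Rh4, Arr2 and Arr1 per 100 CPM of ninaE (vertical, log axis) against hours of refeeding (horizontal), 1 point a fly, females and males side by side with medians. trp dropped from medians of 15.6 and 15.2 at 2 h to 10.3 and 10.0 at 8 h in females and males, while Arr1 stayed between 39.0 and 43.7.

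The sexes were compared in the 9 females and 8 males without DMSO at 0, 2 and 4 h that shared a sequencing run. Ribosomal RNA took 6.74 to 41.8% of gene counts (median 17.8%) in these females and 16.6 to 51.4% (26.6%) in these males. The part of that difference in the comparison was not tested. Of the 10 transcripts 7 were lower in females, beside 45.4% of all 12510 genes, and none was higher, beside 28.6%. The whole-transcriptome median lay at log2 -0.27, so the differences below are read against that shift. Rh6 differed most of the 10, and it alone of them had groups that did not overlap. How many of all genes had groups without overlap was not counted.

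Rh6 measured 34.6 to 70.3 CPM (53.5) in females and 74.0 to 102 (85.4) in males, every female below every male. The difference was log2 -0.79 (SE 0.14, adjusted p = 7.13e-05, edgeR's quasi-likelihood test). Rh4 measured 60.5 to 116 CPM (85.5) in females and 81.9 to 165 (122.5) in males, with all 9 females below the male median, and differed by log2 -0.66 (SE 0.14, adjusted p = 0.000353, edgeR). trp measured 237 to 472 CPM (347) against 322 to 562 (537) and differed by log2 -0.61 (SE 0.15, adjusted p = 0.00137, edgeR), again with all 9 females below the male median.

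Also lower in females were inaD (log2 -0.52, SE 0.17, adjusted p = 0.0119), Arr1 (-0.44, SE 0.16, adjusted p = 0.0189), Arr2 (-0.41, SE 0.17, adjusted p = 0.0365) and ninaE (-0.38, SE 0.15, adjusted p = 0.0299), all by edgeR. ninaE measured 1606 to 3384 CPM (2237) in females and 2202 to 3858 (2933) in males, so most of its range was shared. Rh3 (log2 -0.22, adjusted p = 0.237), trpl (-0.34, adjusted p = 0.0861) and norpA (-0.24, adjusted p = 0.175) did not pass.

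Direction between the sexes depended on what the library was scaled to. Pan-neuronal scaling moved the median of all genes from log2 -0.27 to 0.46. With that scaling 0 members were lower in females and 5 were higher, Rh3 (log2 0.52), norpA (0.53), trpl (0.39), ninaE (0.34) and Arr2 (0.32). On that scale 46.5% of all genes were higher in females and 27.2% lower, so 5 of 10 was near the share of all genes. With library totals alone 0 were lower, and ninaE (0.19), inaD (0.07), Arr1 (0.14) and Arr2 (0.17) lay above 0. With 0 and 2 h only (6 females, 6 males) 3 were lower. The count was 3 without male 4 h 0% replicate 2, and 4 without female 0 h 0% replicate 2, female 2 h 0% replicate 2, female 4 h 0% replicate 3 or male 4 h 0% replicate 1. Of 21 pan-neuronal genes 19 were lower in females (median log2 -0.77), with sums of 878 to 1864 CPM in females and 1571 to 2352 in males. All 12 muscle genes were lower in females, and all 14 egg shell and yolk genes were higher (median log2 10.76). With TMM scaling 45.4% of all genes were lower and 28.6% higher. The part of these tissues in the difference was not tested.

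Ratios gave a scale-free view of the sexes. Rh6 against ninaE was lower in females (log2 -0.42, exact permutation p = 8.23e-05, the smallest that 9 flies against 8 allow, adjusted p = 0.000691), as was Rh4 against ninaE (-0.26, exact permutation, adjusted p = 0.0079). Rh3 against ninaE did not pass (log2 0.18, adjusted p = 0.0693). The Rh3 to Rh4 ratio was higher in females by log2 0.44 (exact permutation, adjusted p = 0.00197) and the Rh6 to Rh3 ratio lower (-0.60, exact permutation, adjusted p = 0.000691). The Rh6 to Rh4 ratio did not pass (log2 -0.15, exact permutation, adjusted p = 0.373).

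**Figure D4:**
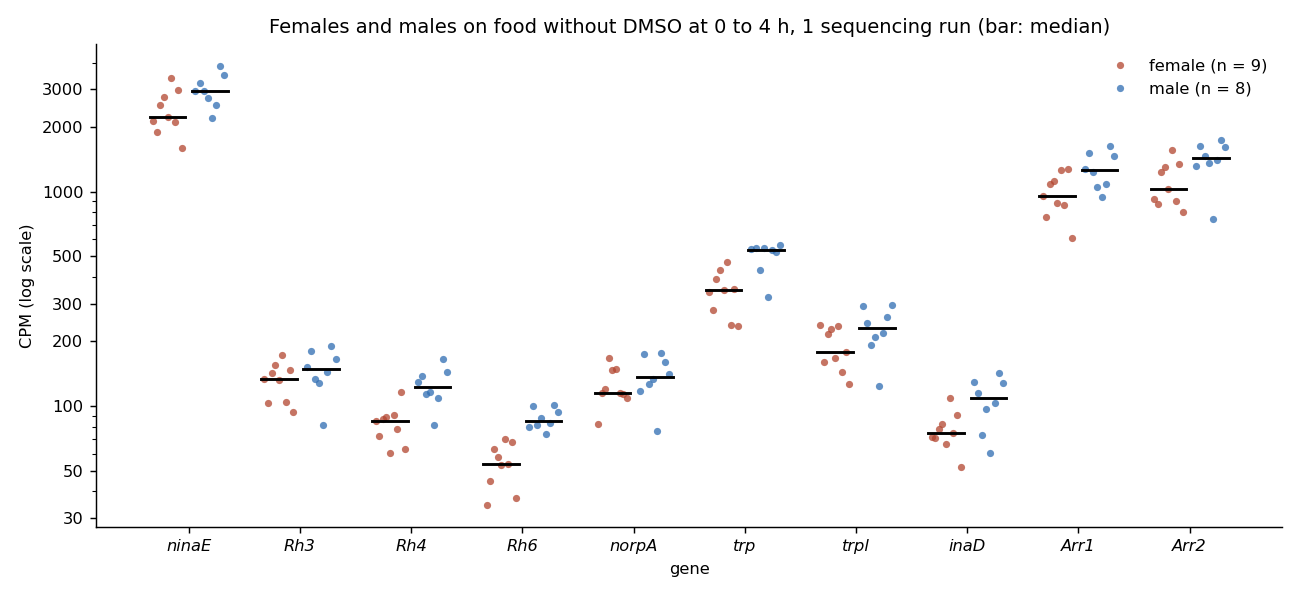
TMM-normalised CPM (vertical, log axis) of each of the 10 genes (horizontal) in the 9 females and 8 males without DMSO at 0, 2 and 4 h from the shared run, 1 point a fly with medians. Only for Rh6 do the groups not overlap, with females at 34.6 to 70.3 CPM and males at 74.0 to 102.

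DMSO, the treatment of the study, changed none of the 10 transcripts by the tests. In females over 2, 4 and 8 h, any level against none (27 flies against 9) gave log2 -0.16 to 0.17 across the 10 genes, with a median standard error of 0.22. edgeR's quasi-likelihood test called 0 of 10 with 0 at an unadjusted p under 0.05, beside 0% of all genes (224 of 10060 at an unadjusted p under 0.05), and DESeq2 called 0. ninaE, for example, measured 830 to 3384 CPM (2108) on food without DMSO, 1259 to 2331 (1978) at 0.1%, 1264 to 3478 (1947) at 0.2% and 847 to 3040 (2430) at 0.4%. These ranges overlapped almost wholly.

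Single levels gave the same count. Against no DMSO, 0.1% gave log2 -0.22 to 0.03, 0.2% gave -0.20 to 0.34 and 0.4% gave -0.06 to 0.15 (9 females against 9). For each, edgeR and DESeq2 called 0 of 10 and no unadjusted p fell under 0.05, beside 0%, 0% and 0.00994% of all genes. All 3 levels against none within 1 time called 0 of 10 at 0, 2, 4 and 8 h by edgeR, beside 0.00994%, 0%, 0.0199% and 0.954% of all genes, with 1, 1, 0 and 0 members at an unadjusted p under 0.05. Flies at 0 h had eaten no DMSO food, so the 0 h test is a check and says nothing about DMSO. The median standard error over the 10 genes was 0.22 for any level and 0.26 to 0.27 for single levels, which sets the precision of these comparisons.

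In males DMSO could be compared within a run in only part of the design. 0.4% against 0.1% (9 flies against 9, 2 to 8 h) gave log2 -0.18 to 0.09 and 0 of 10 called by edgeR and by DESeq2, with no unadjusted p under 0.05, beside 0% of all genes. Any level against none at 8 h (9 flies against 3) gave log2 0.13 to 0.61 and 0 of 10 called by edgeR or DESeq2, beside 0.00791% of all genes. Among the 10, trpl alone had an unadjusted p under 0.05 there (adjusted p = 0.92, edgeR's quasi-likelihood test). The high 0.1% replicate 1 fly is among those 9. The 3 male flies at 8 h on 0.1% held 7896, 2730 and 4359 CPM of ninaE, so the spread within that group exceeded the difference between the foods.

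Other genes of the cascade and of the photoreceptor gave the surroundings of these changes. Of 21 further phototransduction genes measured, 7 rose in females from 0 to 2 h, beside 11.2% of all genes. From 2 to 8 h 16 fell (median of the list log2 -0.77, all genes 0.00), beside 18.9% of all genes. Those that fell included rdgA, the diacylglycerol kinase (log2 -1.04, SE 0.22), Trpgamma, a further channel subunit (-1.16, SE 0.32), ninaA, a chaperone of rhodopsin (-0.88, SE 0.22), and rdgC, a phosphatase of rhodopsin (-0.89, SE 0.24), all with adjusted p of at most 0.0115 by edgeR. In females from 4 to 8 h 9 of 21 fell, where 1 of 21 pan-neuronal genes did, beside 5.06% of all genes. For the 10 members the count in this step was 0 without any one of 9 libraries. With pan-neuronal scaling 0 of all 10060 genes were called there. Those of the 21 that fell from 4 to 8 h included inaC, the eye protein kinase C (log2 -0.91, SE 0.25), and ninaC, a myosin of photoreceptors (-0.94, SE 0.26). In males from 2 to 8 h 0 of the 21 changed by the same test.

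Of 10 genes of photoreceptor structure and of the chromophore, 2 rose in females from 0 to 2 h, beside 11.2% of all genes. From 2 to 8 h 4 fell, beside 18.9% of all genes. The 4 were prom (log2 -1.43, SE 0.23) and eys (-1.10, SE 0.29), which shape and part the rhabdomeres, chp, an adhesion protein of the microvilli (-1.14, SE 0.26), and Cpn, a calcium-binding photoreceptor protein (-1.22, SE 0.27), with adjusted p of at most 0.00763 by edgeR. prom was the one gene of the 10 that fell in males from 2 to 8 h (log2 -0.80, SE 0.14, adjusted p = 0.00172). Photoreceptors signal with histamine, and 5 of 7 tested genes of that synapse fell in females from 2 to 8 h, beside 18.9% of all genes. Among them were Hdc, which makes histamine (log2 -1.11, SE 0.25), and CarT, a transporter of its recycling (-1.27, SE 0.26).

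Transcripts of factors that set which opsin a photoreceptor expresses moved too, though the eye's part of them in a whole fly was not measured. In females 3 of 7 tested were higher from 0 to 2 h and 5 of 7 lower from 2 to 8 h. The shares of all genes in those comparisons were 11.2% higher and 18.9% lower. ss, which acts in the choice of Rh4 over Rh3, rose by 1.33 log2 units (SE 0.26) and then fell by 0.72 (SE 0.25). Pph13, an activator of photoreceptor genes, fell by 1.28 from 2 to 8 h (SE 0.40), both genes with adjusted p of at most 0.0326 by edgeR. In males from 0 to 8 h 2 of the 21 further phototransduction genes were higher, the G protein gene Galphaq (log2 0.61, SE 0.12) and Rh5 (0.46, SE 0.15), and 2 of the 10 structure and chromophore genes, the chromophore enzymes Pdh (0.77, SE 0.19) and ninaB (0.63, SE 0.19), with adjusted p of at most 0.0398 by edgeR. None of the 7 tested synapse genes or 8 opsin-choice factors passed the test, and 6.95% of all genes were higher in that comparison. Of 8 clock genes 6 fell in females from 2 to 8 h and 1 rose, beside 18.9% and 8.71% of all genes. Among them per fell by 1.06 log2 units (SE 0.24, adjusted p = 0.0039, edgeR).

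Between the sexes 15 of the 21 further phototransduction genes were lower in females and 1 was higher, and of the 10 structure and chromophore genes 8 were lower and 1 higher. Of all genes 45.4% were lower and 28.6% higher. Antennal genes, of another sense organ of the head, were lower in 5 of 6 and glial genes in 5 of 6.

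The members also differed in how far flies of 1 group differed from each other. Within a group of sex, time and food, the SD of log2 CPM in females was 0.22 for norpA, 0.40 for Arr1, 0.42 for ninaE, 0.61 for trpl and 0.64 for trp. In males it was 0.28 for Rh4, 0.38 for ninaE, 0.42 for trp, 0.47 for norpA and 0.55 for Arr1. The Arr1 value in males rested on the shallowest library (4 h, 0.4% DMSO, replicate 1), without which it was 0.30. norpA had the smallest SD of the 10 in females and, without that library, the largest in males (0.47). As log2 ratio to ninaE, the within-group SD of Arr1 was 0.08 in females and 0.24 in males, or 0.07 in males without the shallowest library. Leaving it out also lowered the male ratio SD of Rh3 from 0.31 to 0.15 and of Rh6 from 0.38 to 0.23.

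The genes most like ninaE were ranked by the SD over the 48 flies of each sex of the log2 ratio to ninaE, averaged over the sexes, among 6534 genes with a mean of at least 10 CPM in both sexes. This is a description, and libraries share depth and composition. Arr1 ranked first (SD 0.08 in females, 0.24 in males or 0.08 without the shallowest library), against a median gene at 0.69 and 0.51. The next were Pal2, 7B2, CG6656, nSyb and t, at ranks 2 to 6, followed among the members by Arr2 (8), Rh4 (16), inaD (65), Rh6 (91), Rh3 (207), norpA (433), trpl (647) and trp (929). Pal2 gave SDs of 0.21 and 0.21, and nSyb, which encodes the neuronal synaptobrevin, 0.24 and 0.24. Without the 3 libraries set apart 3 of those 5 other genes were kept, and with the mean of the 10 members in place of ninaE 0 of 5 were. The channels were closer to each other than to ninaE, with an SD of the trp to trpl log2 ratio of 0.24 in females and 0.23 in males.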

How the data were processed

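Polyadenylated RNA of 96 single flies was measured with stranded libraries. Each library has 1 file of raw counts deposited by the authors, with 17370 genes, 96 spike-ins and 5 summary lines. The submitters' processing notes list HTSeq 0.6.1p1, STAR 2.4.2a, TopHat2 2.1.0, CASAVA 1.8.2 and bcl2fastq 1.8 without saying what each did. The genome build, not given in the sources used here, was not needed, as no coordinates are reported. The summary lines, at a median of 12.9% of all reads counted, and the spike-ins were kept out of library sizes and tests. Symbols were found for 17155 identifiers. Reads shared between genes were left out of the counts, which could lower genes with near copies.

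Gene counts ran from 958896 to 9215800 per library, so 3 counts equal 0.326 to 3.13 CPM (counting error only). No replicate pair of 96 was identical (smallest chi-square per degree of freedom 4.381). Tests used edgeR 4.0.16 (R 4.3.3), with TMM scaling, its default expression filter, its quasi-likelihood test and Benjamini-Hochberg adjustment at 0.05 over all genes of a comparison. Each sex was fitted with its 48 libraries as 16 groups. These steps were tested on simulated data: for females at 8 against 2 h 73.1% of 67 genes changed 2-fold and 44.8% of 67 changed 1.5-fold were recovered among 9965 genes, and between the sexes 68.7% and 14.9% among 12099. CPM values are TMM-normalised over all 96 libraries. Per-kb levels used the longest coding sequence in the Ensembl BDGP6 annotation. Ratios used log2 counts with 0.5 added and two-sided permutation tests. Figures and ratios were made in Python 3.11.15 with numpy 2.4.6, pandas 2.3.3, scipy 1.17.1 and matplotlib 3.10.9.

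The 10 genes and all lists were chosen with earlier results of these data known. Lists were written from general knowledge; para, Pld and nos, of the pan-neuronal, further phototransduction and female germline lists, were not matched. At most 5 called genes per list and comparison were eligible to be named, those with the smallest adjusted p, besides all 10 members. Alternatives were RLE scaling, library totals, scaling by pan-neuronal genes, ribosomal RNA genes left out, no filter, DESeq2 1.42.0, foods apart, a run factor, fewer times, a replicate block and each library left out. Groups came from the titles. Replicate numbers did not pair flies: the median correlation of deviations between libraries of the same number was -0.03 in females and -0.01 in males.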

Additional observations from a re-analysis of the deposited data

Results flagged for a closer look

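Single flies that lay far from the rest of their group were looked for in 120 groups of 8 or 9 libraries (1 gene in 1 sex and time on DMSO food, 1 sex and DMSO level over 2 to 8 h, or 1 sex without DMSO). The test sets the gap between the most extreme fly and its neighbour against the whole range. It marked 37 values, where chance marks about 1 in 20 groups if all flies of a group share a level. The groups share flies and the genes move together, so the marks are not independent. Groups of 1 DMSO level pool 2 to 8 h, so a change over time can also mark a fly, and that rate does not hold there. All marks among females came from such pooled groups. No cause was tested.

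The male at 8 h on 0.1% DMSO, replicate 1, was far above the rest for ninaE (7896 CPM), Rh3 (348), Rh4 (282), trpl (462), inaD (247), Arr1 (3142) and Arr2 (3536). The male at 8 h on 0.1%, replicate 2, was far below the other males on 0.1% at 2 to 8 h for trp (174 CPM, the next 402). It was close to the lowest male at 8 h on 0.2% (200 CPM). In the shallowest library, the male at 4 h on 0.4%, replicate 1, ninaE (1068 CPM) and Arr1 (148) were far below. Its Arr2 (579) was marked only among males on 0.4% at 2 to 8 h. The male at 4 h on 0.2%, replicate 3, was low for Rh3 (87.6 CPM), trp (229.8), trpl (99.9) and inaD (69.3). Rh6 was low (43.9 CPM) in the male at 2 h on 0.1%, replicate 1, and Rh3 (81.3), trp (322) and Arr2 (742) in the male at 2 h without DMSO, replicate 2.

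Among females without DMSO at 2 to 8 h, the fly at 8 h, replicate 1, was low for Rh4 (16.8 CPM), trp (50.2), trpl (25.5), inaD (16.3) and Arr2 (209). Among females on 0.4% at 2 to 8 h, the fly at 8 h, replicate 2, was low for ninaE (847 CPM), Rh3 (34.3), Rh6 (12.7), trp (48.1), inaD (13.5), Arr1 (354) and Arr2 (224). Both are among the 12 flies behind the female values at 8 h, and without either of them the fall from 2 to 8 h was called for 7 or more of the 10 genes.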

How the results depend on the processing

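Counts of changed members are given as the value under each alternative. The share of all genes called under an alternative is given only for pan-neuronal scaling, above. In females from 0 to 2 h the 4 higher genes became 0 on food without DMSO alone, 2 on DMSO foods alone, 2 with library totals, 1 without the filter and 0 with pan-neuronal scaling, which gave 3 lower genes. From 2 to 8 h the 10 lower genes became 0 on either kind of food alone and 1 with pan-neuronal scaling. From 4 to 8 h the 4 lower genes became 10 with DESeq2, 10 without the female library set apart, and 0 on either kind of food alone, without the filter or with pan-neuronal scaling. Pan-neuronal scaling gave 2 lower genes from 0 to 8 h in each sex, and leaving out the shallowest library 1 higher gene in males. In males from 2 to 8 h the 1 lower gene became 0 with 4 foods and the run as a factor and 2 with DESeq2, library totals or pan-neuronal scaling. Between the sexes the 7 lower genes became 3 with 0 and 2 h only and 0 with library totals or pan-neuronal scaling, which gave 5 higher genes. In CPM without division by length, 3 (females) and 2 (males) of the 10 genes kept their rank. Of the 5 genes nearest to ninaE, 0 remained with the mean of the members as anchor and 3 without the 3 libraries set apart.

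With single libraries left out, counts ranged from 0 to 6 (females higher, 2 against 0 h), 6 to 10 (lower, 8 against 2 h) and 0 to 10 (lower, 8 against 4 h). In males they ranged from 0 to 1 (higher) and 0 to 2 (lower) for 8 against 0 h, 0 to 3 for 8 against 2 h and 0 to 1 for 8 against 4 h, and between the sexes from 3 to 9. Each library left out is an alternative with fewer flies, and sex-by-time terms were not run this way. Of the values called in the comparisons, directions reversed only with pan-neuronal scaling or library totals. All 10 members, called or not, lay below 0 from 0 to 2 h in females with the former, and 9 of 10 above 0 between the sexes. Of those called, females from 0 to 2 h gave ninaE -0.16, Rh3 -0.21, norpA -0.38 and Arr1 -0.21, females from 2 to 8 h ninaE 0.0652, Rh4 0.0861, Rh6 0.0702, norpA 0.28, inaD 0.0406 and Arr1 0.12, and the sexes ninaE 0.34, Rh4 0.0625, trp 0.12, inaD 0.21, Arr1 0.28 and Arr2 0.32 (log2). With library totals the sexes gave ninaE 0.19, inaD 0.0716, Arr1 0.14 and Arr2 0.17. The replicate block changed no call of a count by over 1.5 times: it gave 3 higher genes from 0 to 2 h, 10 and 4 lower from 2 and 4 to 8 h in females, 1 in males and 7 between the sexes; 9 of 48 female and 15 of 48 male libraries correlated best with their own number. Over single genes, 165 values under the other settings kept direction and call, 67 lost the call, 3 gained it and 20 reversed. The cause of each change was not tested. Depth sets the floor of 3 counts at 3.13 CPM in the shallowest library, below every member there.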

Other observations

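One female, at 4 h on 0.2% DMSO, replicate 3, held an unusual mixture of opsin transcripts. It was singled out after its values were seen. It had the highest ninaE (3478 CPM, 20947 counts), trp (723 CPM) and trpl (360 CPM) of the 48 females, but 36.2 CPM of Rh3 (218 counts). Per 100 CPM of ninaE it held 1.04 of Rh3, where the other 47 females held 3.68 to 6.63, and 1.37 of Rh4, where they held 2.03 to 4.62. Rh6 (1.19 against 1.30 to 3.24), Rh5 (1.34 against 1.53 to 2.70) and Arr1 (32.6 against 36.7 to 44.9) were also below every other female, while trp, at 20.8, lay inside the range of the others (5.68 to 21.3). The same fly held 90.3 CPM of the yolk protein transcript Yp1, where the other females held 529 to 12309, and 1.33 CPM of the male RNA roX1. Its library was of ordinary depth, with 4872108 gene counts.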
